A study of Mus musculus with 123 samples.

Results

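The loci described here are those of 6 transcription factors that direct endoderm and mesoderm, namely Sox17, Gata4, Gata6, Foxa2, Eomes and T (brachyury). They were examined in 3 deposited peak lists of histone H3 lysine 4 methylation, named ES1, ES2 and ES3 which were taken from their names to be mouse embryonic stem cells in 3 sets. Each locus was a fixed window of the mm9 build around its gene, and a peak belonged to it when at least 1 bp lay inside. The windows held 28 of the 60226 peaks, 11 of 26292 in ES1, 10 of 21543 in ES2 and 7 of 12391 in ES3. Peaks that overlapped between lists were merged into 12 regions, out of 31580 for the whole genome. The regions of a locus are lettered along the chromosome (Sox17 a, Sox17 b). The windows were set by position and not by any measured value.

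The series profiled single cells in droplets, where micrococcal nuclease cuts the chromatin of each cell and a DNA barcode is ligated to it before immunoprecipitation. Its 123 libraries, 86 with an antibody to H3K4me2 and 37 to H3K4me3, came from V6.5 embryonic stem cells grown with serum and LIF, embryonic fibroblasts and EML blood progenitors, alone or pooled. No source used here ties a list to libraries, to one of the 2 marks or to a number of cells, or says how cells were assigned to the 3 lists. Each list is 1 measurement, and without replicates no p-value could be given for any comparison of lists.

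Methylation of lysine 4 of histone H3 marks promoters, and in its dimethylated form enhancers as well. In embryonic stem cells the promoters of many lineage regulators carry it together with the repressive methylation of lysine 27, a state known as bivalent or poised, while the genes are silent or nearly so. Gata4, Gata6, Sox17 and Foxa2 act in the endoderm, and the T-box factors Eomes and T act in the primitive streak, from which mesoderm and definitive endoderm arise. Gata6 and Sox17 also act in the primitive endoderm of the early embryo, the lineage next to the pluripotent epiblast.

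Promoter sequences of 3 of the 6 genes, T, Eomes and Foxa2, are in the RefSeq table used here. Sox17, Gata4 and Gata6 are not in it. The sequences are shown to set the 2 T-box loci, which had peaks, beside Foxa2, which had none. Each is the 250 bases before the most upstream listed start, 5′ to 3′ on the gene's strand, in the GRCm38.p6 build, with every CpG dinucleotide in capitals. Because the peaks are in mm9, the sequences were not placed relative to the peaks.
T, chr17:8434173-8434422, plus strand: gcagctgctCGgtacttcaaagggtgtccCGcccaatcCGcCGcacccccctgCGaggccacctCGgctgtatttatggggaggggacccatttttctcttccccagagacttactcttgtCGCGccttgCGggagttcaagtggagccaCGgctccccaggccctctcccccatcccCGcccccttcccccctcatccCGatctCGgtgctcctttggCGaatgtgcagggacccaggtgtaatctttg
Eomes, chr9:118477939-118478188, plus strand: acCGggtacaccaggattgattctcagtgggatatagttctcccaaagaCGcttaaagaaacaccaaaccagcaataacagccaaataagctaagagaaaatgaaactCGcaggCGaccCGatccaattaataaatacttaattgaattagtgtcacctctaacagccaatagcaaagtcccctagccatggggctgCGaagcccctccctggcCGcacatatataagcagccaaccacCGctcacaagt
Foxa2, chr2:148046970-148047219, minus strand: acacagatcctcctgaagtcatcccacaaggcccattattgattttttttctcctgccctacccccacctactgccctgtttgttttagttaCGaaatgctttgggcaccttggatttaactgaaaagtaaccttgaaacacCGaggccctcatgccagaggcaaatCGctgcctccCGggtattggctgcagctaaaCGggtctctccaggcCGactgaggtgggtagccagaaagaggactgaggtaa

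The promoter windows differed in CpG content. The T sequence held 14 CpG dinucleotides, the Eomes sequence 8 and the Foxa2 sequence 6, against a median of 6 over the 32851 entries of the table. The ratio of observed to expected CpG was 0.594 for T, 0.621 for Eomes and 0.376 for Foxa2, with a median of 0.374 over the table. Foxa2 has 2 further listed starts whose windows are richer, with 20 and 13 CpG and ratios of 0.732 and 0.730. Both ratios are above those of T and Eomes, so the order of the ratios reverses with the start that is taken. Whether CpG content goes with having a peak was not tested. On both strands, 5 motifs were searched: the TATA box as TATAAA, found in 12.4% of all entries, the GATA motif as AGATAA, found in 9.99%, the forkhead motif as TGTTTAC, found in 3.17%, the T-box motif as TCACACCT, found in 1.12%, and the SOX motif as ACAATGG, found in 3.02%. No motif overlaps were removed. The 3 printed sequences held none of these exact strings, and the Foxa2 window with 13 CpG held those of the TATA box and the GATA motif. Variants were not searched, among them TATATAA, which the Eomes sequence holds near its 3′ end. No promoter is thus shown to lack a TATA box, or a GATA, forkhead, T-box or SOX site.

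ES1 had a peak in 5 of the 6 windows, ES2 in 5 and ES3 in 4. The T window had none in ES3, and the Foxa2 window had none in any list. For comparison, 19.8%, 16.9% and 10.8% of all 30 kb windows of the genome had a peak in ES1, ES2 and ES3. Those windows also fall in gene-poor sequence, and 2 of the member windows are wider. Of all 55 kb windows, the width used for Gata6, 27.2%, 23.8% and 16.0% had a peak, and of all 100 kb windows, the width used for Gata4, 35.7%, 32.2% and 23.0%. Of the 275 kb in the windows, ES1 peaks covered 22.3 kb, ES2 peaks 24.3 kb and ES3 peaks 16.0 kb. Neither order of ES1 and ES2 was stable. With lists shortened by reads to the length of ES3, ES2 had 9 peaks in the windows and ES1 had 7, and with windows extended by 10 kb, ES1 covered 33759 bp and ES2 31476 bp.

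**Figure D1:**
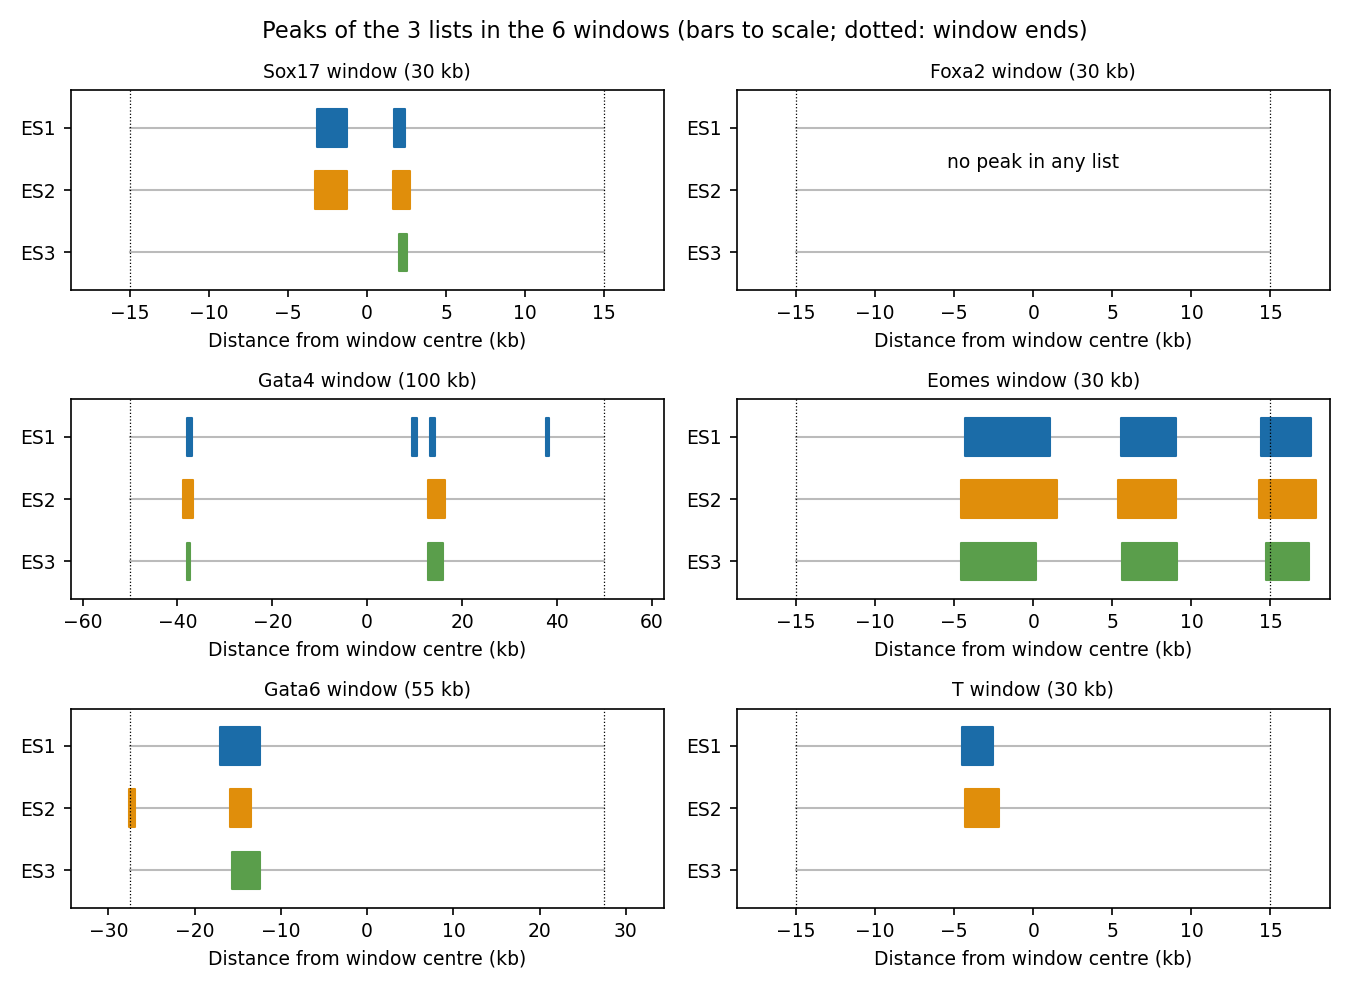
Peaks of ES1, ES2 and ES3 as bars, drawn to scale, against the distance from the window centre in kb for each of the 6 windows. Dotted lines are window ends. Sox17 had 2 peaks in ES1 and ES2 and 1 in ES3, T had no ES3 peak, Foxa2 had no peak in any list, and Eomes had 3 in each.

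Below, reads are those recovered from the authors' score for the inner interval of a peak, a stretch given in the deposited lists that starts with the peak and may end before it. Reads in the rest of a peak are unknown. Intervals are exact Poisson 95% intervals and cover counting error only. By this recovery, ES1, ES2 and ES3 rested on 2441443, 2717742 and 2439853 reads. Inner intervals of all peaks held 22.9% of the reads of ES1, 15.9% of those of ES2 and 8.86% of those of ES3, so ES3 differed from ES1 in its share of reads in peaks at a similar total. The authors' score was read here as the read density of the inner interval relative to the mean of its chromosome, which the authors did not state.

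Sox17, a SOX factor needed for endoderm, had 2 regions 2.90 kb apart on chromosome 1, in the window from 4470000 to 4500000. The left region, Sox17 a (4481694 to 4483716), had peaks in ES1 and ES2 and none in ES3. The ES1 peak of 1892 bp held 42 reads (30.3 to 56.8), a density of 22.2 reads per kb, with more reads than 92.1% of ES1 peaks and a higher score than 94.5%. The ES2 peak of 2019 bp held 15 reads (8.40 to 24.7) in an inner interval of 562 bp, or 26.7 per kb, and its score was higher than 98.1% of ES2 scores. The 2 peaks ended within 4 bp of each other and shared 93.3% of the bases of the region. Sox17 a was among the densest regions of both lists.

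ES3 had no peak at Sox17 a, and its level there is unknown. The smallest ES3 peak on chromosome 1 held 8 reads. Of the 2070 ES1 peaks with at least 42 reads, 80.8% shared a base with an ES3 peak. Among the 41 of these that were also at least as dense in reads per kb as Sox17 a, 40 did, and Sox17 a was the exception. Seen from ES2 the absence was less unusual. Of the ES2 peaks with at least 15 reads 51.8% met an ES3 peak, and of the 450 that were also at least as dense 61.8% did. The 2 views are not alike, since the inner interval was 27.8% of the ES2 peak and 100% of the ES1 peak. These comparisons were chosen after the values were seen. Sox17 a was also held by ES1 and ES2 alone when both lists were shortened to the length of ES3, by reads or by score. With only the upper 50% of each list by reads, it was in ES1 alone.

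The right region, Sox17 b (4486612 to 4487687), had a peak in each list. The ES1 peak measured 685 bp, the ES2 peak 1076 bp and the ES3 peak 500 bp, narrower than the list median in all 3, and 500 bp was the smallest width in ES3. The reads were 15 (8.40 to 24.7), 16 (9.15 to 26.0) and 10 (4.80 to 18.4), or 21.9, 14.9 and 20.0 per kb. Relative to the totals, the density in ES1 was 1.64 times that in ES2 (0.755 to 3.54) and 1.09 times that in ES3 (0.460 to 2.72). That in ES2 was 0.667 times that in ES3 (0.285 to 1.65). No difference beyond counting error was thus seen at Sox17 b, but the intervals are wide and do not show equal density.

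Gata4, a zinc finger factor of endoderm and heart, had 4 regions in its window of 100 kb on chromosome 14, from 63800000 to 63900000. Gata4 a and Gata4 c were in all 3 lists, and Gata4 b and Gata4 d in ES1 alone. Gata4 a (63811165 to 63813255) lay near the left end of the window. ES1 gave it 974 bp, ES2 2091 bp and ES3 500 bp. They held 17 (9.90 to 27.2), 25 (16.2 to 36.9) and 9 (4.12 to 17.1) reads. The density was highest in ES1 at 22.3 per kb, then 18.0 in ES3 and 12.0 in ES2. The ES1 density was 2.07 times that of ES2 (1.05 to 3.99) after scaling to the totals, measured over inner intervals of 764 bp and 2091 bp.

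Gata4 c (63862794 to 63866390) was the densest region of the 6 loci in ES1, where it was a narrow peak of 1030 bp with 21 reads (13.0 to 32.1) and a score above 97.7% of the list. ES2 and ES3 extended it to the right, to 3468 bp and 3271 bp. The ES3 peak held 34 reads (23.5 to 47.5) over its full width, more than 94.9% of ES3 peaks. The ES2 peak held 15 reads (8.40 to 24.7) in an inner interval of 682 bp. The density was 25.4 per kb for ES1, 22.0 for ES2 and 10.4 for ES3, and the scaled density of ES1 was 2.44 times that of ES3 (1.35 to 4.33). The inner intervals were 827 bp and 3271 bp, so the ES3 value averages over the sequence that ES1 left out. At Gata4 c the lists thus differed in extent, and ES3, the shortest list, had the wider peak, the ES1 width being 0.315 of the ES3 width.

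The regions of ES1 alone at Gata4 were small. Gata4 b (63859394 to 63860522) lay 2.27 kb from Gata4 c and held 9 reads (4.12 to 17.1), and 2.08% of ES1 peaks held fewer. Gata4 d (63887803 to 63888302) held 8 reads (3.45 to 15.8) in 500 bp. That equals the smallest number of reads behind any ES1 peak on chromosome 14. Both were lost when ES1 was shortened by reads to the length of ES3, and both were kept when it was shortened by score.

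Gata6, the related GATA factor of the primitive endoderm, had 1 region in all 3 lists and 1 in ES2 alone. Its window of 55 kb lies on chromosome 18, from 11040000 to 11095000. Gata6 b (11050423 to 11055109) had an ES1 peak of 4687 bp, an ES2 peak of 2468 bp and an ES3 peak of 3222 bp. They were wider than 88.7%, 73.3% and 88.8% of the peaks of their lists. They held 51 reads (38.0 to 67.1), 28 (18.6 to 40.5) and 19 (11.4 to 29.7), the last in an inner interval of 1317 bp. The ES1 peak covered the whole region, the ES2 peak its middle and the ES3 peak its right part.

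Density at Gata6 b was the lowest of the member regions in ES1 and in ES2, at 10.9 and 11.3 reads per kb, and 14.4 in ES3. None of the 3 scaled ratios between lists was apart from 1, the farthest being 0.706 for ES2 over ES3 (0.380 to 1.34). Gata6 a (11039881 to 11040578) was an ES2 peak of 698 bp with 11 reads (5.49 to 19.7) at the left end of the window, with 579 bp inside. Its membership rests on where the window was set. Beyond the window the nearest ES2 and ES3 peaks to the right were both 720 kb away, and ES1 had 1 of 969 bp at 15.4 kb.

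Foxa2, the forkhead factor of endoderm, node and notochord, had no peak in any list. Its window lies on chromosome 2, from 147855000 to 147885000. To the left, the nearest ES1 peak was 661 kb away, the nearest ES2 peak 666 kb and the nearest ES3 peak 1518 kb, and to the right 621 kb, 348 kb and 613 kb. The 3 lists together left 1039 kb without a peak around it, from 147194252 to 148233028. Gaps at least this long made up 1.35% of the 31560 gaps between merged regions, whose median was 14.1 kb, but they held 34.2% of the genome. In the RefSeq order of GRCm38.p6, the protein-coding neighbours of Foxa2 are Pax1 and Nkx2-2, both developmental regulators, on one side and Sstr4 and Thbd on the other.

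At the mean density of chromosome 2, a window of this width would hold 32.2, 36.6 and 34.1 reads in ES1, ES2 and ES3, spread along its length. The smallest peaks on this chromosome held 9, 10 and 9 reads. The lists do not give the reads in the Foxa2 window, so the lack of a peak does not show that the locus was unmarked. Of all 30 kb windows of the genome, 77.4% had no peak in any list. Among the 4 endoderm factors, only Foxa2 had no peak, while Sox17, Gata4 and Gata6 each had at least 1 region in all 3 full lists. With lists shortened to the length of ES3, no Sox17 region was in all 3 by reads, and no Gata6 region by score.

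Eomes, a T-box factor of the primitive streak, had the widest peaks and the most reads of the 6 loci. Its window lies on chromosome 9, from 118375000 to 118405000. Each list had the same 3 regions there, separated by 3.88 kb and 5.21 kb. Windows of 30 kb with 3 or more peaks in every list made up 0.456% of the genome. The rightmost, Eomes c, entered the window by 605 bp, 719 bp and 273 bp and lies mostly outside it. With the midpoint required inside, each list had 2 peaks at Eomes.

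Eomes a (118385421 to 118391478) spanned 5408 bp for ES1, 6039 bp for ES2 and 4747 bp for ES3, which exceeded 91.6%, 95.6% and 95.9% of the peaks of their lists. It was the widest peak of the 6 loci in each list. The reads were 52 (38.8 to 68.2), 32 (21.9 to 45.2) and 45 (32.8 to 60.2), with inner intervals of 3888 bp, 2170 bp and 4747 bp. The densities were 13.4, 14.7 and 9.48 per kb. The scaled density in ES1 was 1.41 times that in ES3 (0.928 to 2.15), which is within counting error. In ES3 this peak held more reads than 98.1% of the list, over an inner interval of 4747 bp. By score the Eomes a peaks were below the median of their lists, above 37.8%, 49.2% and 13.9% of the peaks of ES1, ES2 and ES3.

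Eomes b (118395363 to 118399068) had nearly the same edges in all lists. Its starts lay within 231 bp and its ends within 33 bp, and the 3 peaks shared 92.9% of the bases of the region, the most of any region in all 3 lists. Its widths were 3456 bp, 3689 bp and 3475 bp. The ES1 peak held 40 reads (28.6 to 54.5), the ES2 peak 42 (30.3 to 56.8) and the ES3 peak 11 (5.49 to 19.7), but the ES3 inner interval spans only 501 bp, and the densities of 16.4, 15.4 and 22.0 per kb had overlapping intervals. Eomes c (118404282 to 118407888) measured 3195 bp, 3607 bp and 2703 bp, with 9, 42 and 14 reads in inner intervals of 501 bp, 3607 bp and 1288 bp.

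ES1 peaks covered 31.6% of the Eomes window, ES2 peaks 34.8% and ES3 peaks 28.3%. In the other 4 windows with peaks the share lay between 1.67%, at Sox17 in ES3, and 10.3%, at Sox17 in ES2, wherever a list had a peak. Eomes kept most of its covered share in ES3, which was not particular to it. At Gata4 the share was 3.63% in ES1 and 3.77% in ES3, and at Gata6 8.52% and 5.86%. At Sox17 it was 8.59% and 1.67%, and T had no ES3 peak. To the right of the Eomes window, within another 30 kb, ES1 had 3 more peaks and ES2 had 2, and ES3 had none.

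T, the T-box factor brachyury that marks nascent mesoderm, had 1 region, in ES1 and ES2. Its window lies on chromosome 17, from 8615000 to 8645000, and the region from 8625476 to 8627856. The ES1 peak of 1975 bp held 23 reads (14.6 to 34.5) and the ES2 peak of 2191 bp held 28 (18.6 to 40.5), both over their full width. The densities of 11.6 and 12.8 per kb were nearly equal after scaling, with a ratio of 1.01 (0.558 to 1.83). The peaks shared 75.0% of the bases of the region. By score they were low in their lists, above 19.8% of ES1 and 33.8% of ES2 peaks. By reads they ranked higher, above 73.1% and 84.4%, and by width above 59.1% and 67.9%.

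ES3 had no peak in the T window. Its nearest peaks lay 12.8 kb to the left, with 13 reads (8601374 to 8602229), and 348 kb to the right, and left 391 kb without a peak. ES1 had a peak at that left position too, 570 bp wide with 11 reads. Of the ES1 peaks with at least 23 reads 62.6% met an ES3 peak, and of the ES2 peaks with at least 28 reads 74.2%. Among those also at least as dense in reads per kb as T, 69.8% and 81.6% did. Peaks like T that ES3 lacked were thus a minority, though not rare. With ES1 and ES2 shortened by reads to the length of ES3, the T region was still in both and not in ES3. With lists shortened by score, T was in none of the 3.

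**Figure D2:**
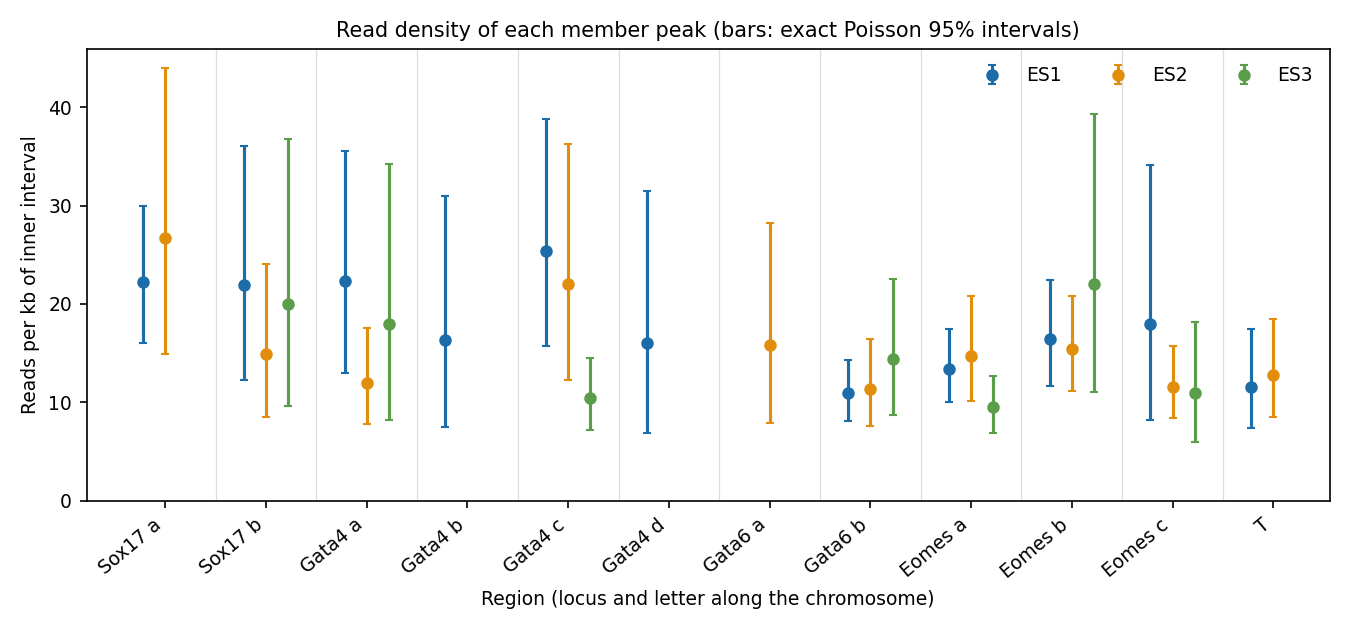
Reads per kb of inner interval for each peak of the 12 regions, by list. Bars are exact Poisson 95% intervals. The densities ran from 9.48 at Eomes a in ES3 to 26.7 at Sox17 a in ES2, and the intervals of most regions overlapped between lists.

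Density did not separate the loci. In ES1 the Sox17 and Gata4 peaks ranged from 16.0 to 25.4 reads per kb and those of Gata6, T and Eomes from 10.9 to 18.0, which overlap. In ES2 the ranges were 12.0 to 26.7 and 11.3 to 15.8. In ES3 the densest member peak was Eomes b at 22.0, above each Sox17 and Gata4 peak. Of the 11 member peaks in ES1, 6 were wider than the median ES1 peak of 1684 bp and 8 had a score above the median. In ES2 the numbers were 8 and 6 of 10, and in ES3 5 and 5 of 7. As read here, the authors' score depends on the read density of the whole chromosome. In ES1 that density was 0.787 reads per kb on chromosome 1, 0.765 on chromosome 14 and 1.06 on chromosome 9.

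**Figure D3:**
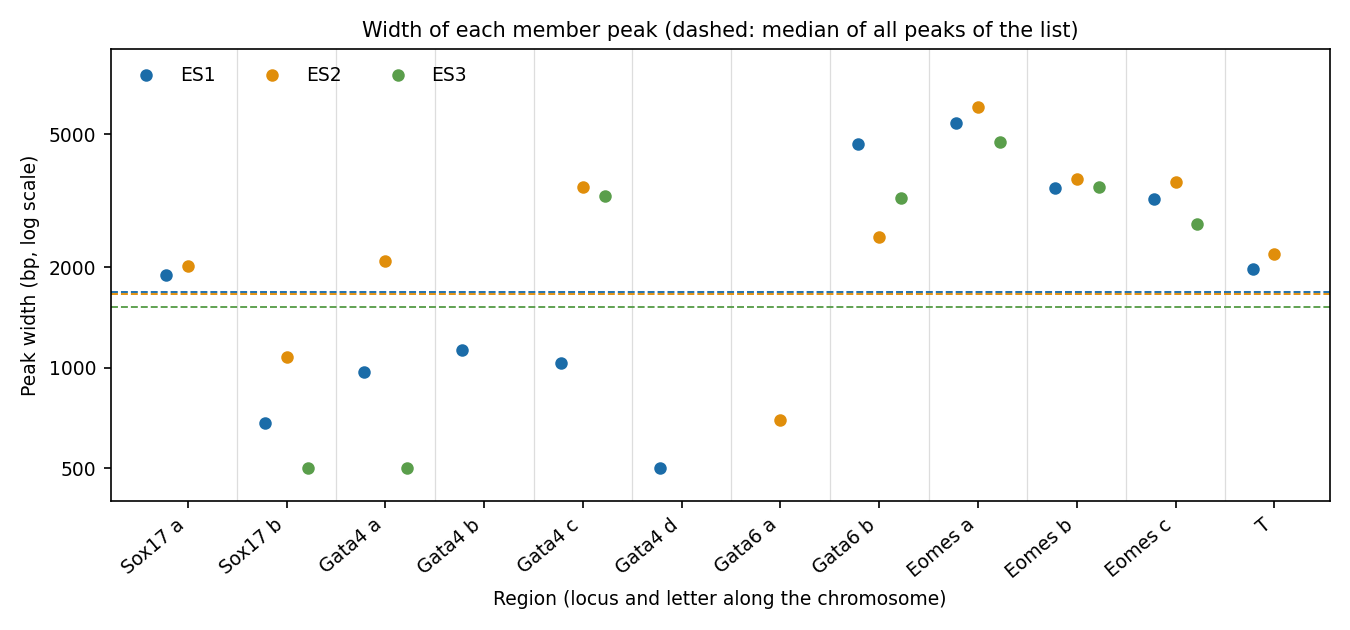
Width in bp, on a log axis, of each peak of the 12 regions, by list. Dashed lines are the median widths of all peaks, 1684, 1660 and 1517 bp in ES1, ES2 and ES3. The Eomes and Gata6 b peaks lie above the median of their list in every list, and the Sox17 b peaks below it.

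Between lists, 9 regions allowed 23 pairs of densities. Only the Gata4 a pair of ES1 and ES2 and the Gata4 c pair of ES1 and ES3 had an interval apart from 1, and the intervals were not adjusted for the 23 pairs. In both pairs the ES1 inner interval, of 764 bp and 827 bp, lay inside a longer one of 2091 bp and 3271 bp. These ratios thus do not compare the same sequence. At the other 7 regions the density ratios between lists with a peak were within counting error. This does not show equal density, since the inner intervals could cover unlike stretches. At Eomes c those of ES1 and ES3 shared 169 bp, and their ratio was 1.65 (0.631 to 4.10). A peak has to be dense to be listed, so densities of listed peaks say little of the regions that a list lacks.

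Of the 12 regions, 7 were in all 3 lists, which is 58.3% (exact binomial 95% interval 27.7 to 84.8), against 26.2% of all merged regions. Without the 3 regions of Eomes, a comparison chosen after seeing the data, it was 4 of 9, or 44.4% (13.7 to 78.8). Regions of 1 locus are not independent. With lists shortened to the length of ES3, the regions in all 3 lists numbered 5 of 9 by reads and 4 of 11 by score, against 20.8% and 11.9% of all merged regions that still had a peak. These shares were added after seeing the data. In the full lists no region was in ES3 alone, against 2.97% of all merged regions. ES1 alone had 2 regions, ES2 alone 1 and ES1 with ES2 2, against 27.3%, 12.8% and 23.8% of all merged regions. Each of the 7 ES3 peaks met a peak of ES1 and of ES2, where 86.6% and 77.1% of all ES3 peaks did. Of the 11 ES1 peaks, 9 met ES2 and 7 met ES3, against 61.1% and 37.7% of all ES1 peaks. Of the 10 ES2 peaks, 9 met ES1 and 7 met ES3, against 78.1% and 42.7%. The exact intervals of all 6 member shares included the share of the whole list.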

How the data were processed

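The data were 3 peak lists of the whole series, which the labels tie to no library. Per the submitters' processing notes, reads were aligned with Bowtie to mm9, with no version given. For the peak caller, the mark and any filter on duplicate reads, the sources used here give nothing. The deposited lists give every peak its position, an inner interval and a score, whose unit the authors did not state. Starts are printed 1-based.

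The score multiplied by the inner length was, for 100% of peaks (tolerance 0.001), a whole multiple of a unit fixed within each chromosome of a list. Dividing the mm9 chromosome length by that unit gave a whole number, within the same tolerance, in 60 of 60 pairs of chromosome and list. The lengths were entered from general knowledge of mm9 and not read from a deposited file. That number was taken as the reads of the chromosome, and the multiple as the reads of the peak. That 1 unit is 1 read is an assumption.

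Windows were taken from fixed mm9 coordinates. Background shares came from consecutive windows set from the start of each chromosome, unplaced gaps included. Density ratios were scaled to the total reads of each list, with exact binomial intervals conditional on the sum. Where lists were shortened, ties were broken by chromosome and position. The recovery, overlaps and merging were tested on simulated data. Promoter windows and neighbouring genes are from RefSeq tables of GRCm38.p6, of which no gene coordinate was set against mm9. The other endoderm and mesoderm regulators listed for description were not analysed here, since they needed an mm9 annotation. All 6 loci and all their peaks are named. The loci, lists and alternatives were chosen with earlier results of these data known. Python 3.11.15, numpy 2.4.6, pandas 2.3.3, scipy 1.17.1 and matplotlib 3.10.9 were used.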

Additional observations from a re-analysis of the deposited data

How the results depend on the processing

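Under the alternatives, 54 values stayed within 1.5 times a count or within the interval of a share, and 10 did not. Foxa2 had no peak in any list under every window rule and list length tried. With lists shortened to the length of ES3 by score, 3 windows had an ES1 peak and ES1 peaks covered 10271 bp, since Gata6 b, T and Eomes a fell out. By reads, ES1 had 7 peaks in the windows, and 100% of them met ES2. With 50% of each list kept, those with the most reads, ES1 had 7 peaks and ES3 had 3, and 2 of 9 regions were in all 3 lists, against 14.8% of all regions. Windows extended by 10 kb gave 33759 bp covered in ES1. Genome windows of 50 kb had a peak in 25.9%, 22.6% and 15.1% in ES1, ES2 and ES3, as wider windows must. With at least 50% of both peaks shared, 63.6% of the ES1 member peaks met ES2 and 54.5% met ES3. No paired analysis was possible because no list has a replicate. Depth limits what can be listed: with about 1 read per kb, a region without a peak is not shown to be unmarked.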

Other observations

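The surroundings of the windows differed between loci. Left of Gata4, within 100 kb, each list had 4 peaks, which covered 16670, 14291 and 9192 bp in ES1, ES2 and ES3, more than the peaks inside the Gata4 window did. The nearest of them ended 2.63 kb, 2.47 kb and 5.89 kb before the window. The ES1 peak there, 7994 bp wide with 63 reads (63789377 to 63797370 on chromosome 14), was wider than every peak inside the 6 windows. In the RefSeq order of GRCm38.p6 the protein-coding genes next to Gata4 on that side are Neil2 and Fdft1. Which gene these peaks belong to was not determined.

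Around Sox17 the lists differed in their nearest peaks. ES1 had a peak of 1457 bp with 15 reads 7.68 kb to the left, where ES2 and ES3 had no peak between the chromosome's start and the window. To the right the nearest peaks lay 61.4, 61.8 and 460 kb away in ES1, ES2 and ES3.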
